A study of Mus musculus with 8 samples.

Results

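The 9 genes Lss, Cyp51, Tm7sf2, Msmo1, Nsdhl, Hsd17b7, Ebp, Sc5d and Dhcr7 encode enzymes that turn squalene epoxide into cholesterol. They were taken by gene name from the deposited tables of 53242 genes, and all 9 had enough counts to be tested. B cells were isolated from the spleens of C57BL/6 mice aged 8 to 12 weeks and kept for 24 h in culture with 40 ng/ml IL4 and irradiated CD40LB cells. These feeder cells, which express CD40 ligand and human BAFF, were removed with beads before RNA was sequenced. Control mice were Eif4a1 +/+ and 4A1 KO mice were Eif4a1 fl/fl, and both carried Cd23-cre, which deletes floxed genes from the immature splenic B cell stage onward. Each genotype had 4 libraries, numbered 1 to 4, of which 1 and 3 were from males and 2 and 4 from females, with 1 and 2 in batch A and 3 and 4 in batch B. Replicate 1 of both genotypes, which the authors left out of their own comparison for reduced viability, is shown but was not used in the fitted fold changes (n = 3 per genotype).

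Cholesterol synthesis has an early part, in which acetyl-CoA is built up through mevalonate to squalene epoxide, and a late part, in which LSS closes the rings and the other enzymes remove methyl groups and move or reduce double bonds. Most of these enzymes sit in the endoplasmic reticulum. Their genes are textbook targets of SREBP2, a membrane-bound transcription factor that is released when sterols are low and acts together with NF-Y and Sp1, and lymphocytes raise sterol synthesis when they prepare to divide.

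The promoters of these genes were searched for letters that these factors are known to bind, in RefSeq promoter sequences of mouse build GRCm38 that run from 250 bases before to 50 bases after each start. The table held 11 promoters for the 9 genes, and each was found exactly once in GRCm39. All 9 genes had an NF-Y box (CCAAT on either strand), as did 41.1% of 27025 genes, and all 9 had an Sp1 box (GGGCGG on either strand), as did 38.2%. Both boxes were present in 15.8% of all genes. An SREBP element with the letters TCACNCCAC was found in none of the 9 genes and in 1.44% of all genes, which says only that these letters are not in these windows. Below is, for each of 6 genes, the NF-Y box that lies before the RefSeq start and is nearest to it, with 12 bases on either side, in the direction of the gene and with the box in capitals. They are the genes with the 3 largest and the 2 smallest falls, and Dhcr7, the last enzyme.
Lss, chr10:76367365-76367393, plus strand: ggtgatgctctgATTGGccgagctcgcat
Msmo1, chr8:65186651-65186679, minus strand: gagtggggcggaCCAATtacgacaggcga
Nsdhl, chrX:71962095-71962123, plus strand: aagactagcctcATTGGgcaaaatcatgc
Hsd17b7, chr1:169796770-169796798, minus strand: ggccgagccttgATTGGtcgaggtgcgcg
Tm7sf2, chr19:6117911-6117939, minus strand: ctcccagcgctgATTGGctactgtgctgg
Dhcr7, chr7:143383890-143383918, plus strand: aatccacttccgATTGGtcgtctgtgacc
The coordinates are those of GRCm39. The box began 62 bases before the RefSeq start in Lss, 55 in Msmo1, 20 in Nsdhl, 12 in Hsd17b7, 47 in Tm7sf2 and 49 in Dhcr7. The RefSeq start is not the start of the gene in the GENCODE annotation, from which it lay 141 bases away in Lss, 218 in Msmo1, 415 in Nsdhl, 39 in Hsd17b7 and 523 in Tm7sf2. All 29 bases shown for Msmo1, Nsdhl, Hsd17b7 and Dhcr7 fall within exons of the GENCODE canonical transcript, as do 4 of those of Lss and 0 of those of Tm7sf2. The box ran in the reverse direction (ATTGG) in all of these but Msmo1. Dhcr7 had 3 RefSeq promoters, and the box was in the third, 7211 bases from the GENCODE start, but not in the other 2. Nsdhl held 4 NF-Y boxes, Msmo1 and Hsd17b7 held 3 each, and Tm7sf2 and Lss held 1 each.

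All 9 genes fell in 4A1 KO B cells. The summed level of the 9 genes was 826 to 957 CPM (library-size scaled, TMM-normalized counts) in the 4 control libraries and 262 to 349 CPM in the 4 4A1 KO libraries, and in replicates 2 to 4 the 4A1 KO sum was 34.9% of control. A gene was called when edgeR's quasi-likelihood test gave a Benjamini-Hochberg adjusted p under 0.05 and the log2 fold change exceeded 0.5 in either direction. By this rule 9 of 9 were called lower, against 13.7% of the 14218 genes tested. Their median log2 fold change was -1.47, and that of all genes was 0.01. The fall was largest in Lss and Msmo1 and smallest in Hsd17b7 and Tm7sf2, and 5 of the 9 genes fell by more than 1.4 on the log2 scale. In bulk RNA, fewer cells that express a gene and less RNA per cell cannot be told apart.

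**Figure D1:**
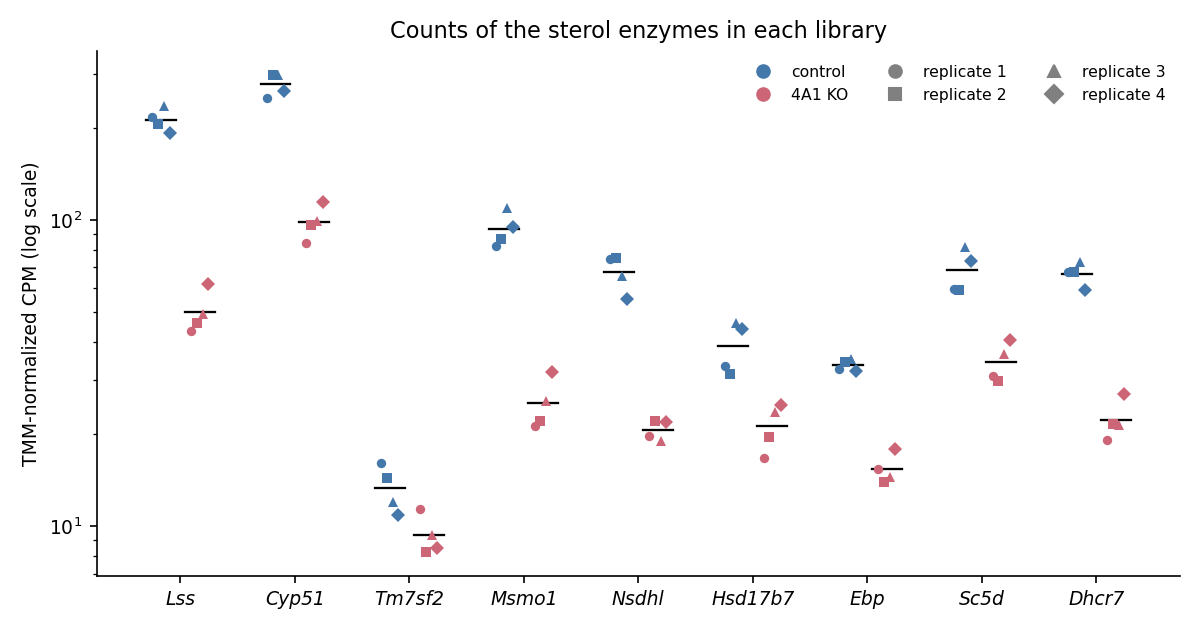
TMM-normalized CPM (log scale) of the 9 enzymes in pathway order, in 4 control and 4 4A1 KO libraries; each point is a library, its shape gives the replicate, and the black line is the mean of 4. The genotypes are apart for 8 genes, and for Tm7sf2 4A1 KO 1 (11.4) lies above control 4 (10.9).

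Lss (ENSMUSG00000033105, chromosome 10 from 76367298 to 76392976 in GRCm39) encodes lanosterol synthase, which folds squalene epoxide into lanosterol, the first sterol of the pathway. It had 217, 206.5, 235 and 193 CPM in control 1 to 4 and 43.3, 46.2, 49.2 and 61.7 CPM in 4A1 KO 1 to 4. The genotypes were far apart, with the highest 4A1 KO library well below the lowest control library. Its fitted log2 fold change was -2.02 (standard error, SE, 0.11, adjusted p = 9.59e-06, edgeR), a 4.05-fold fall and the largest of the 9 genes. Of the 14218 genes tested, 147 fell further.

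Lanosterol loses its methyl group at carbon 14 through CYP51, the target of azole drugs in fungi. Cyp51 (ENSMUSG00000001467, chromosome 5 from 4123416 to 4154751) was the most abundant of the 9 genes, with 249.9, 298, 298 and 264 CPM in control 1 to 4. In 4A1 KO 1 to 4 it had 83.9, 96.4, 99.0 and 115 CPM, which leaves a wide gap between the genotypes. The log2 fold change was -1.47 (SE 0.08, adjusted p = 9.59e-06, edgeR). Its exons share 1253 bases (21.1% of its merged exons) with Akap9 on the opposite strand, and the authors counted reads by strand.

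The double bond that CYP51 leaves behind is reduced by TM7SF2, a sterol reductase that shares this step with the lamin B receptor LBR. Tm7sf2 (ENSMUSG00000024799, chromosome 19 from 6112851 to 6118403) was the least abundant of the 9 genes and fell least by counts. By TPM Hsd17b7 fell least, at -0.81 against -0.86 for Tm7sf2 in the limma fit. Without replicate 2 this turned, with -0.91 for Hsd17b7 and -0.58 for Tm7sf2. Control 1 to 4 had 16.1, 14.4, 12.0 and 10.9 CPM, and 4A1 KO 1 to 4 had 11.4, 8.26, 9.35 and 8.52 CPM. Within each pair of same-numbered libraries the 4A1 KO library was the lower, but the genotypes overlapped, with 4A1 KO 1 above control 4 (exact permutation test over 8 libraries, two-sided, p = 0.0571). The log2 fold change was -0.50 (SE 0.12, adjusted p = 0.00557, edgeR), which lies at the threshold, and without replicate 2 it was -0.36 and the gene was no longer called. In the deposited TPM (transcript abundances scaled to length and library, computed by the authors with Stringtie) the genotypes did not overlap, with 8.11 to 13.2 TPM in control and 4.03 to 6.04 TPM in 4A1 KO, and the difference on the log2(TPM + 1) scale was -0.86 (adjusted p = 0.0106, limma). Tm7sf2 shares 532 exon bases (10.8%) with Vps51 on the same strand, so its counts are uncertain. Vps51, a subunit of a vesicle tethering complex, had 48.3 ± 3.10 CPM in control and 49.7 ± 1.66 CPM in 4A1 KO (SD, n = 3) and a log2 fold change of 0.04 (adjusted p = 0.581, edgeR).

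The pair of methyl groups at carbon 4 is taken off by MSMO1, NSDHL and HSD17B7 in turn. Msmo1 (ENSMUSG00000031604, chromosome 8 from 65170603 to 65186830) encodes the oxidase that starts this. It had 82.0, 86.5, 109.7 and 94.6 CPM in control 1 to 4 and 21.3, 22.1, 25.7 and 31.9 CPM in 4A1 KO 1 to 4 and fitted with a log2 fold change of -1.87 (SE 0.10, adjusted p = 9.59e-06, edgeR). The genotypes were far apart, and 185 genes fell further.

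NSDHL then removes the oxidized carbon as CO2. Its gene Nsdhl (ENSMUSG00000031349) lies on chromosome X from 71961712 to 72002129. Control 1 to 4 had 74.4, 75.1, 65.7 and 55.2 CPM, and 4A1 KO 1 to 4 had 19.8, 22.1, 19.0 and 21.9 CPM. The 4A1 KO libraries were close to each other while the control libraries were lower in batch B than in batch A. Genotype shifted Nsdhl by a log2 fold change of -1.63 (SE 0.09, adjusted p = 1.03e-05, edgeR). It shares 331 exon bases with Cetn2 on the opposite strand.

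HSD17B7 reduces the remaining ketone and closes the cycle. Hsd17b7 (ENSMUSG00000026675, chromosome 1 from 169777093 to 169796813) had 33.4, 31.5, 46.2 and 44.1 CPM in control 1 to 4 and 16.7, 19.6, 23.7 and 24.8 CPM in 4A1 KO 1 to 4. Both genotypes were higher in batch B than in batch A, and the genotypes did not overlap. The log2 fold change was -0.83 (SE 0.08, adjusted p = 4.36e-05, edgeR), so of the 3 enzymes that act on carbon 4 this one kept the most RNA, 55.9% of control against 27.4% for Msmo1 and 32.2% for Nsdhl.

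The last 3 enzymes rearrange the double bonds of the ring. EBP, named for its binding of the drug emopamil, is the isomerase. Its gene Ebp (ENSMUSG00000031168, chromosome X from 8050773 to 8059795) had 32.6, 34.4, 35.3 and 32.2 CPM in control 1 to 4 and 15.4, 14.0, 14.5 and 17.8 CPM in 4A1 KO 1 to 4. The spread within each genotype was small next to the gap, and the log2 fold change was -1.14 (SE 0.10, adjusted p = 3.68e-05, edgeR).

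SC5D adds a double bond to lathosterol. Sc5d (ENSMUSG00000032018, chromosome 9 from 42162891 to 42175605) had 59.5, 59.2, 81.8 and 73.7 CPM in control 1 to 4 and 30.9, 29.8, 36.5 and 40.4 CPM in 4A1 KO 1 to 4. As for Hsd17b7, batch B was higher than batch A in both genotypes. Sc5d had a log2 fold change of -1.01 (SE 0.07, adjusted p = 1.65e-05, edgeR), which left 49.7% of the control level.

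DHCR7 makes cholesterol from 7-dehydrocholesterol, which is also the precursor of vitamin D. Dhcr7 (ENSMUSG00000058454, chromosome 7 from 143376740 to 143402149) had 67.7, 67.4, 72.8 and 59.1 CPM in control 1 to 4 and 19.1, 21.6, 21.4 and 27.1 CPM in 4A1 KO 1 to 4. The genotypes were separate by a wide gap. Dhcr7 had a log2 fold change of -1.51 (SE 0.11, adjusted p = 2.01e-05, edgeR), and it fell further than Sc5d in 4 of 4 pairs.

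Taking the 8 libraries together, the highest 4A1 KO value lay under the lowest control value in 8 of the 9 genes by CPM, against 19.6% of 14211 genes, and in 9 of 9 by TPM, against 19.6% of 12996 genes. In the TPM fit 9 of 9 were called lower at an adjusted p under 0.05 (limma), against 26.6% of the 12976 genes that averaged 1 TPM or more. The TPM differences ran from -1.91 in Lss to -0.81 in Hsd17b7 on the log2(TPM + 1) scale, and Tm7sf2 was the gene whose value differed most between the deposited units, with -0.50 by counts and -0.86 by TPM.

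The 4 pairs were not equal by CPM. In pair 1 the median log2 ratio of the 9 genes was -1.57, in pair 2 it was -1.63, in pair 3 it was -1.59 and in pair 4 it was -1.13. Pair 4, the batch B females, had the smallest fall in 8 of 9 genes, and the exception was Hsd17b7, whose fall was smallest in pair 2. Lss was at 19.9% of its control in pair 1, 22.4% in pair 2, 20.9% in pair 3 and 32.1% in pair 4. Dhcr7 was at 28.3%, 32.0%, 29.4% and 45.8% in the same order. 4A1 KO 4 was the highest 4A1 KO library for 7 genes, and control 4 was the lowest control library for 5. Log2 CPM was also centred on each gene's mean and averaged over the 9 genes. It was -0.48 in 4A1 KO 4 and -0.80 to -0.67 in 4A1 KO 1 to 3. In control 4 it was 0.61, and in control 1 to 3 it was 0.65 to 0.80. The 11 genes from acetyl-CoA to squalene epoxide had median log2 ratios of -1.66, -1.75, -1.89 and -1.27 in pairs 1 to 4. Eif4a1 itself, the targeted gene, had log2 ratios of -0.47, -0.43, -0.55 and -0.35 in pairs 1 to 4 by CPM. By TPM they were -0.45, -0.41, -0.47 and -0.43, so its smallest fall was in pair 4 by CPM and in pair 2 by TPM. The part of Eif4a1 in the pair differences of the sterol genes was not tested.

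**Figure D2:**
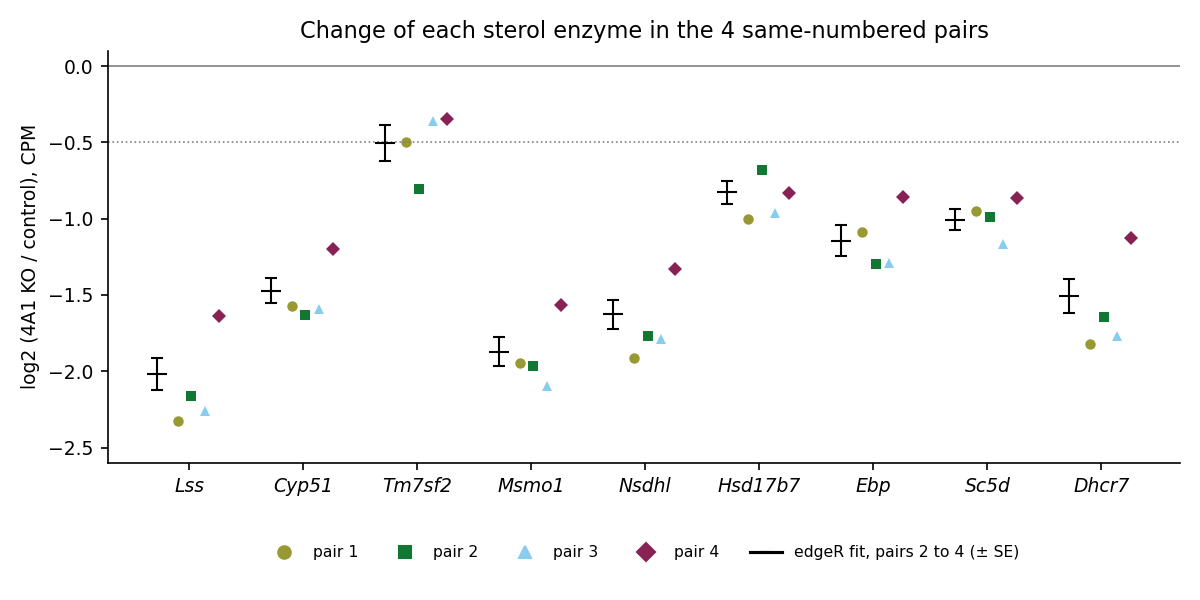
Log2 ratio of 4A1 KO to control CPM for each enzyme in pathway order; coloured points are the 4 same-numbered pairs, the black mark is the edgeR log2 fold change of pairs 2 to 4 with its SE, and the dotted line is at -0.5. Pair 4 is the uppermost point in 8 of 9 genes, and the points of Tm7sf2 lie around the dotted line.

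The falls were also compared between genes within each pair, by CPM. Lss fell more than Msmo1 in 4 of 4 pairs, by 0.20 ± 0.13 on the log2 scale (mean difference, SD over 4 pairs). Msmo1 fell more than Nsdhl in 4 of 4 pairs, by 0.19 ± 0.12, and Nsdhl more than Dhcr7 in 4 of 4, by 0.11 ± 0.08. By TPM, Lss fell more than Msmo1 in 3 of 4 pairs, and Nsdhl more than Dhcr7 in 1 of 4. Cyp51 fell more than Ebp in 4 of 4 pairs, by 0.37 ± 0.08. Other neighbours in the order changed places in 1 pair by CPM, namely Dhcr7 and Cyp51, Ebp and Sc5d, Sc5d and Hsd17b7, and Hsd17b7 and Tm7sf2. By TPM, Sc5d fell more than Hsd17b7, and Hsd17b7 more than Tm7sf2, in only 2 of 4 pairs. Dhcr7 fell more than Cyp51, and Ebp more than Sc5d, in 4 of 4 pairs by TPM. The falls did not run in the order of the pathway, since small ones (Tm7sf2, Hsd17b7, Sc5d) stood between large ones.

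The difference of the genotype effect between sexes was tested as an interaction in the 8 libraries, which matters for the X-linked Nsdhl and Ebp. The effect in males minus that in females was -0.29 (SE 0.15) for Nsdhl and -0.12 (SE 0.17) for Ebp on the log2 scale, and neither passed (adjusted p = 1 for both, edgeR). The smallest unadjusted p values among the 9 genes were 0.0298 for Lss, with -0.39, and 0.0351 for Dhcr7, with -0.41 (edgeR's quasi-likelihood test, adjusted p = 1). Over all 14211 genes tested, 0 (0.0%) differed between sexes and 1 (0.00704%) between batches at an adjusted p under 0.05, so these tests do not set the 9 genes apart from the rest. For batch B minus batch A the values ran from -0.06 in Hsd17b7 to 0.29 in Lss (adjusted p = 0.999, edgeR).

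Levels were compared between genes by TPM, which is scaled to transcript length. In control libraries Cyp51 was highest, at 134 ± 13.3 TPM (SD, n = 4), followed by Msmo1 at 87.4 ± 13.0 TPM and Lss at 78.9 ± 6.68 TPM, whose ranges overlapped. Nsdhl at 58.1 ± 6.48 TPM and Dhcr7 at 53.7 ± 3.47 TPM also overlapped. Ebp at 36.3 ± 1.65 TPM and Sc5d at 28.5 ± 4.89 TPM were apart from each other and from the rest. Hsd17b7 at 16.6 ± 3.90 TPM and Tm7sf2 at 10.7 ± 2.50 TPM were the lowest and overlapped in range. In 4A1 KO libraries Cyp51 was again highest, at 47.4 ± 7.67 TPM, and Hsd17b7 and Tm7sf2 lowest, at 8.69 ± 1.88 and 5.05 ± 0.84 TPM. The 6 genes between them, from Msmo1 at 23.5 ± 5.17 TPM to Sc5d at 14.3 ± 2.73 TPM, came to lie so close that each overlapped the next in range. Dhcr7 and Ebp changed places, as Dhcr7 had 15.8 ± 2.99 TPM and Ebp 16.5 ± 2.17 TPM in 4A1 KO, but their ranges overlapped.

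**Figure D3:**
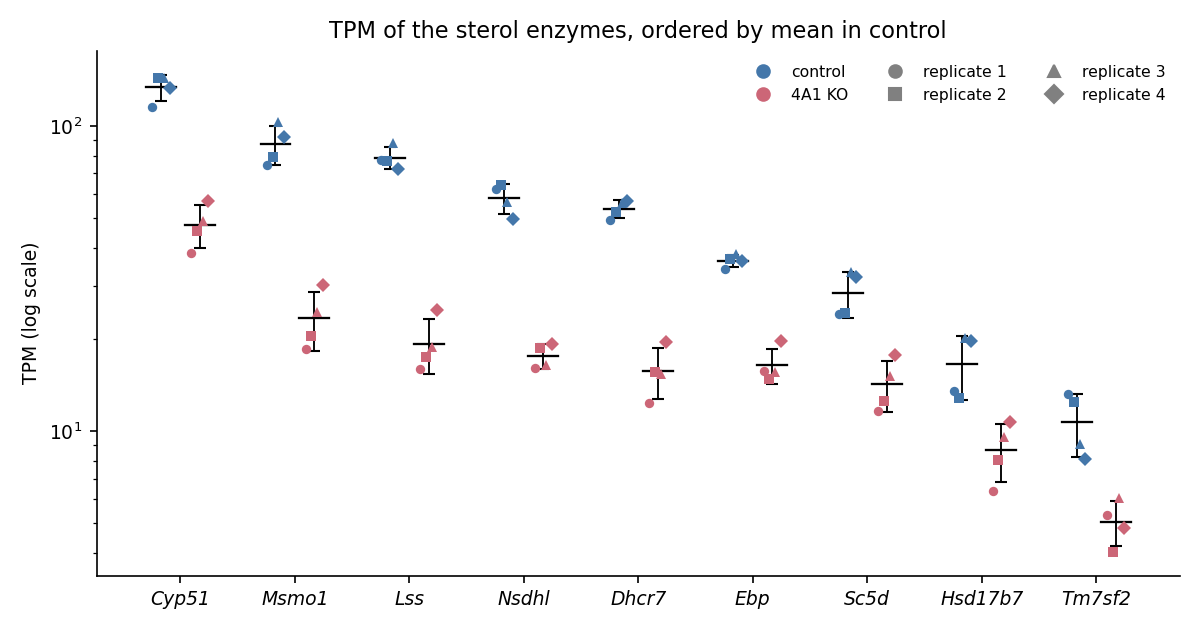
TPM (log scale) of the 9 enzymes ordered by their mean in control, with each library as a point and the mean ± SD of 4 libraries in black. In control the means run from 134 (Cyp51) to 10.7 (Tm7sf2), and in 4A1 KO the 6 genes from Msmo1 to Sc5d lie between 23.5 and 14.3.

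The other genes of the pathway were taken from lists. Of the 11 genes that lead from acetyl-CoA to squalene epoxide, 10 were called lower, against 13.7% of all genes, and 0 higher, against 11.6%, with a median log2 fold change of -1.63. Sqle, whose product makes squalene epoxide, had 211 to 254 CPM in control and 80.4 to 89.96 CPM in 4A1 KO, and a log2 fold change of -1.45 (adjusted p = 9.59e-06, edgeR). Ggps1, which leads away from sterols to geranylgeranyl lipids, was the gene not called, at -0.16 (adjusted p = 0.151, edgeR). Of the other genes that act on the sterol ring, 3 of 4 tested were called lower (13.7% of all genes), and 2 with DESeq2 (with and without shrinkage), with glmTreat and without replicate 3. Erg28, a scaffold for the carbon 4 enzymes, had -0.70. Ebpl, a relative of Ebp, had -0.57, while Lbr had -0.41 (adjusted p = 1.25e-04, edgeR), which is within the 0.5 limit.

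Of 7 genes that regulate SREBP, 1 was called lower, a share near the 13.7% of all genes, and 0 higher, and their median log2 fold change was -0.02. The one was Insig1, which retains SREBP in the endoplasmic reticulum and is itself a target of SREBP, with 157 to 183 CPM in control and 70.8 to 81.2 CPM in 4A1 KO and a log2 fold change of -1.23. Srebf2, the gene of SREBP2, had 649 to 804 CPM in control and 524 to 621 CPM in 4A1 KO, without overlap, and its log2 fold change of -0.36 (adjusted p = 1.87e-04, edgeR) was within the 0.5 limit. Of 9 tested genes of sterol uptake, efflux and esterification, 2 were called lower and 3 higher, where 13.7% of all genes were called lower and 11.6% higher. Among the lower ones was Stard4, a sterol carrier, with -1.57. The higher ones were Mylip, a ubiquitin ligase gene induced by sterols, with 1.00, and the sterol exporters Abca1 with 0.92 and Abcg1 with 0.70.

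**Figure D4:**
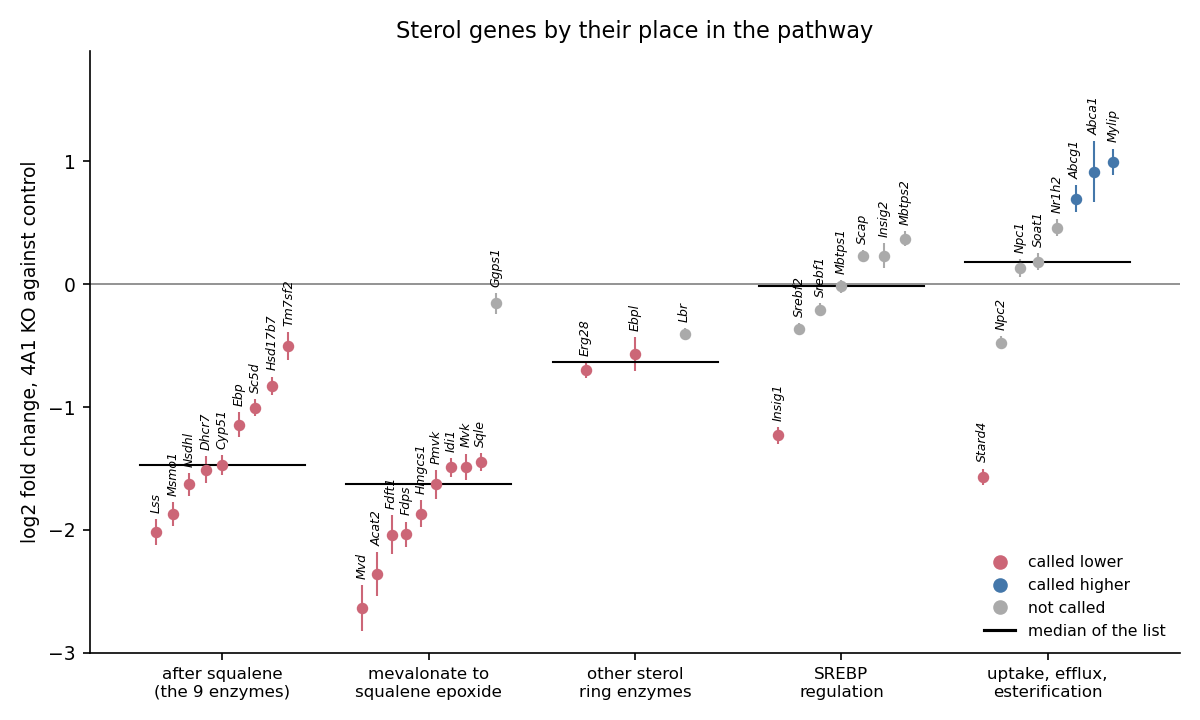
Log2 fold change (edgeR, replicates 2 to 4, bars are SEs) of the 9 enzymes and of 4 other lists of sterol genes; red points were called lower, blue higher, grey not called, and the black line is the median of each whole list, including genes that are not drawn. The medians are -1.47 for the 9 enzymes, -1.63 for the genes before them and -0.02 for regulators of SREBP.

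Profiles over the 8 libraries were compared with the mean profile of the 9 genes by the root mean square difference of centred log2 CPM. The 8379 genes compared, these 9 included, averaged 10 CPM or more and were above 0 CPM in every library. The nearest outside the 9 were Tubb4b (0.07), Sqle (0.09), Pygb (0.12), Shisa8 (0.13) and Fgd2 (0.13). Of the 9 genes themselves, Cyp51 lay nearest to the mean profile, at 0.10, and Tm7sf2 farthest, at 0.50. Among all genes compared, Cyp51 ranked 3 by nearness, Lss 421 and Tm7sf2 1159, so many other genes lay nearer than some of the 9. The mean profile was made from the 9 genes themselves.

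The libraries held 31727557 to 43210858 counts, and the 9 genes rested on 318 (Tm7sf2) to 12387 (Cyp51) counts per library. Eif4a1 had 748 to 940 CPM in control and 556 to 689 CPM in 4A1 KO and a log2 fold change of -0.44 (adjusted p = 1.15e-04, edgeR). The counts cover the whole gene, so transcripts with and without the floxed exons were not told apart. Beside the marker counts that follow, 13.7% of all genes were called lower and 11.6% higher. B cell markers summed to 6745 to 7897 CPM in control and 7179 to 7621 CPM in 4A1 KO, and 3 of 8 (Cd79a, Cd79b and Cd22) were called lower. Fibroblast markers, which would mark feeder cells, summed to 9.25 to 42.9 CPM in control and 14.3 to 27.1 CPM in 4A1 KO, with Postn and Lum at 0 and 6 of 10 below 1 CPM in every library, and 1 was called lower (Col3a1, -1.57) and 1 higher (Fn1, 0.86). T cell markers summed to at most 1.11 CPM, myeloid markers to 4.09 to 8.14 CPM in control and 7.31 to 8.92 CPM in 4A1 KO with S100a8 and S100a9 at 0 and 1 called higher (Adgre1, 0.62). The part of the feeder and myeloid markers in the sterol genes was not tested. Plasma cell markers summed to 165 to 202 CPM in control and 84.8 to 112 CPM in 4A1 KO, and 3 of 4 (Sdc1, Prdm1 and Xbp1) were called lower, and their part in the sterol genes was not tested.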

How the data were processed

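The authors trimmed reads with Trim Galore 0.6.6, mapped them to GRCm39 with HISAT2 2.1.0 and counted them by strand over merged isoforms with Seqmonk, and deposited these counts without normalization. The deposited TPM were calculated by the authors with StringTie 2.1.1 (versions from the submitters' processing notes). The handling of multi-mapping reads is not given in the sources used here. Here, counts of replicates 2 to 4 (6 libraries) were filtered with filterByExpr, normalized with TMM and fitted with edgeR 4.0.16 in R 4.3.3, with batch, sex and genotype. CPM are given with TMM factors of all 8 libraries. The TPM fit used limma 3.58.1 on log2(TPM + 1). All p-values are two-sided. Those of edgeR and limma are adjusted over all genes tested unless called unadjusted, and the permutation p-value is not adjusted.

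The replicates came from individual mice. In the 6 libraries batch and sex equal the replicate number as a block. This pairing comes from the labels, and deviations of same-numbered libraries correlated across genes at 0.496, 0.499 and 0.364. The code was tested on simulated data, where edgeR recovered 187 of 199 changed genes among 14072 with 3 false calls and limma 171 of 171 among 11808 with 7 false calls. The simulated counts had the same dispersion for every gene and no batch, sex or pair effect. For limma they were scaled to the library total without transcript length. These numbers therefore check the code and do not give error rates for the real data. Coordinates are from GENCODE M39, matched by identifier.

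The members and the lists were chosen with earlier results of these data known. The genes named are all 9 enzymes, genes of the fixed pathway and marker lists (the 3 with the smallest adjusted p in each, Srebf2, Insig1 and Sqle), Eif4a1 and the 5 genes nearest in profile. Ggps1, Ebpl, Abca1, Abcg1, the neighbours Vps51, Akap9 and Cetn2, and the other markers were named after their values were seen. Faxdc2 was not found by its symbol. Some genes of the lists are not reported here. The alternatives were other normalizations, DESeq2 1.42.0, glmTreat, other filters and pseudocounts, no replicate block, all 8 libraries and leaving out each replicate.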

Additional observations from a re-analysis of the deposited data

Results flagged for a closer look

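Each genotype's 4 libraries were examined for a library set apart from the other 3, in CPM and in TPM of each of the 9 genes. Of 36 such groups 0 had one by Dixon's criterion, where chance would give 1.8.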

How the results depend on the processing

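No result of the 9 genes changed direction under any alternative run. By counts, 8 genes were called lower under all 14 alternatives, and Tm7sf2 under 10. Tm7sf2 was lost with upper-quartile scaling (-0.48), with DESeq2 and normal shrinkage (-0.46), with glmTreat against a log2 fold change of 0.5 and without replicate 2 (-0.36). In TPM it was lost without a filter on low values (adjusted p = 0.0822, limma), and the other 8 were called in all 7 alternatives. Leaving out 1 replicate gave 8 to 9 called genes by counts and 9 by TPM. In those TPM fits, 34.5% to 44.3% of all genes were called in either direction. Over all genes, 3596 were called by counts, 1627 with glmTreat and 3083 to 3821 when 1 replicate was left out. Without the replicate block 9 of 9 and 3000 of all genes were called, and with the block in all 8 libraries 9 of 9 and 3678. The log2 fold change of Lss ranged from -2.21 to -1.74, and that of Dhcr7 from -1.70 to -1.38. By counts, the median of all genes stayed between 0.00 and 0.03. The TPM overlap and 2 interaction alternatives were added after seeing the data. With 3 libraries per genotype an exact test cannot go below 0.1, so the calls rest on the spread that edgeR and limma share across genes.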
